A study of Arabidopsis thaliana with 16 samples.

Results

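The sites described here are the positions on DNA of the Arabidopsis shoot apical meristem (SAM) at which the transcription factor PLETHORA5 (PLT5) gave a peak in both replicates of a DNA affinity purification sequencing (DAP-seq) experiment and the control protein GFP gave none. A site is a replicate 1 peak that shared at least 1 bp with a replicate 2 peak and no base with a peak of either GFP replicate. By this rule 2587 sites were retained, out of 6748 PLT5 peaks in replicate 1 and 3934 in replicate 2, and out of 293185 peaks in the 16 libraries of the study. The PLT5 libraries combined a 3xFLAG-tagged PLT5 bait with genomic DNA of c. 500 dissected SAMs of Col-0 seedlings at 9 d after germination. The GFP libraries, with 5090 and 5383 peaks, used GFP as bait on SAM DNA of the same kind, with 2 replicates per bait. The bait proteins were not made by the plants, so the peaks record which DNA the protein held in the tube and not where PLT5 sits in living cells, and whole SAMs give 1 average over all their cell types.

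PLT proteins form a small clade of AP2-type transcription factors that maintain stem cells, promote organ outgrowth and help to set the position of new leaves and flowers at the shoot tip. They act through auxin transport and auxin synthesis, and the family as counted here includes AINTEGUMENTA (ANT) and BABY BOOM (BBM). In DAP-seq, sheared genomic DNA is incubated with a tagged factor, the fragments that are held are sequenced, and a binding site appears as a stack of fragments. The DNA keeps its methylation but has lost its nucleosomes and partner proteins.

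Example sites are shown first because they carry the sequence that distinguished PLT5 sites from GFP peaks. A motif matrix of 16 bp was fitted on PLT7 SAM sites that touched no PLT5 site, so that it was independent of the PLT5 sites. It was not independent of other PLT5 peaks, which the training sites could touch. Its letters, where 1 base reached 50% at a position and N elsewhere, read CACGNNTNCCNANGNN, searched on both strands. In the following stretches of the RefSeq TAIR10.1 genome, each read 5′ to 3′ on the strand of the match, capitals mark the 16 bp match. The examples lie in or near genes of the PLT family, of auxin and cytokinin signalling and of organ boundaries, and beside strongly enriched genes of the chromosome arms. All were taken from sites with a match. Of the 16 sites in the gene lists described below, 12 had a match, and those at NPY4, AHP6, ANT and ARF9 had none.
PLT5 (RefSeq symbol AIL5), 5′ UTR, minus strand, chr5:23256514-23256543: gaccttcCACTATTTCCAAAGTCgtgaaat
BBM, intron, minus strand, chr5:5745265-5745294: ttttttcCCCTTCTTCCAATGCAtagaaca
NPY1 (RefSeq symbol ENP), 5′ UTR, plus strand, chr4:15394280-15394309: tgtttggCTCAAATCTCAATGAAagtttat
ARR15, 5′ UTR, plus strand, chr1:28132771-28132800: caaaggaCGCAGAAATCAATGTGaagaagg
CUC3, 5′ UTR, plus strand, chr1:28673973-28674002: aaaatggCACATAAATCGAAGATataatag
ARF11, promoter, plus strand, chr2:19104177-19104206: tatctcgCACGCTTTCCAAAGCCctagaac
ARF18, 5′ UTR, minus strand, chr3:22888340-22888369: ttctaagCTCGTCTCCCGAGAAAatgaaag
IAA18, promoter, minus strand, chr1:19304555-19304584: ggacttaCACATATTCCAATGTTtgggaaa
PIN4, 3′ UTR, plus strand, chr2:180421-180450: taaatagCCCAATCTCCGAGGCTctctcaa
ATU2AF65A, coding sequence, minus strand, chr4:17297486-17297515: aattggaCTCGAAACCCAAGGTAatttccc
AT1G68430, promoter, plus strand, chr1:25655582-25655611: ataaggaCACAGTTTCCAATGAAattccaa

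The 3 strongest PLT5 sites held no match to the matrix. They are shown for contrast as 30 bp of the plus strand, with the summit base of replicate 1 in capitals.
Site 1, intergenic, chr3:13705955-13705984: tgggaagtcacccaTcctagtactactctc
Site 2, intergenic, chr4:3987503-3987532: ctaacaaggacacaCtacttaggcttttac
Site 3, intergenic, chr4:4009780-4009809: gtccagatgagtctTtatctttgtatcttc

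Most PLT5 sites were moderately enriched, and the replicates gave similar sizes. Enrichment is the deposited fold at the summit, the stack of fragments plus 1 over the local background plus 1. Among the 2530 sites on the nuclear chromosomes, the fold ranged between 1.56 and 20.3 in replicate 1 with a median of 2.29, and between 1.6 and 23.9 in replicate 2 with a median of 2.34. The mean of both replicates was at least 4 at 36 sites, at least 3 at 185 sites and under 2 at 338 sites. Across these sites the log2 ratio of replicate 2 to replicate 1 had a SD of 0.21 and a median of 0.05, and Spearman's rho of the fold was 0.60 (0.55 without the 100 strongest sites), a description across sites of 1 genome. Summits of the replicates lay a median of 22 bp apart. The smallest overlap with a replicate 2 peak was 25 bp, and the nearest GFP peak lay a median of 4265 bp away and at the least 1 bp away. The smallest GFP overlap that excluded a peak was 1 bp.

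**Figure D1:**
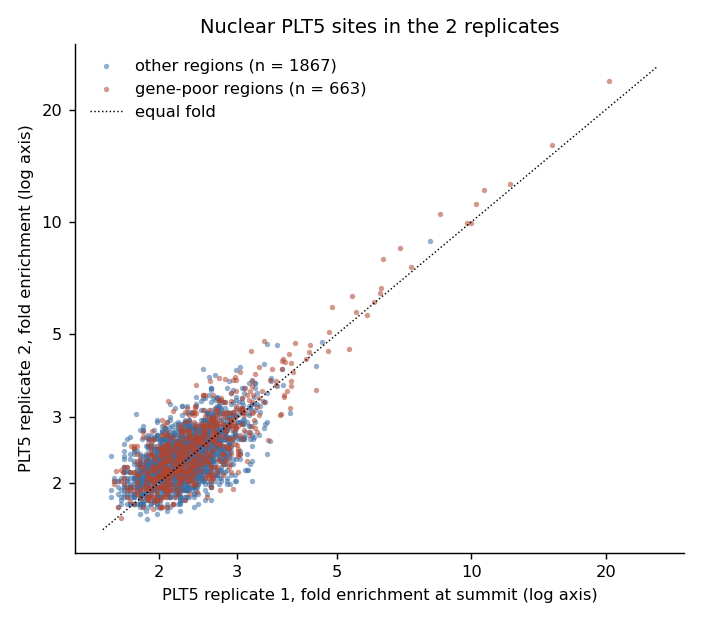
Fold enrichment at the summit of each nuclear PLT5 site in replicate 1 (x axis) and replicate 2 (y axis), both on log axes, with sites in gene-poor regions and in other regions in 2 colours and a dotted line at equal fold. The strongest sites, up to 20.3 and 23.9, lie near the line and mostly in gene-poor regions.

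The GFP control was far shallower than the PLT5 libraries, which limits what its lack of a peak can show. The deposited fold and p-value together return the number of fragments stacked at a summit, and they did so for 100% of the peaks of these 4 libraries. The genome-wide background was 34.8 and 25.7 fragments in the PLT5 replicates, against 0.458 and 0.420 in the GFP replicates, a ratio between 56.1 and 82.9. A nuclear PLT5 peak had a median of 72 and 59 stacked fragments, against 5 in both GFP libraries. At the genome-wide background, the lowest summit listed stood at 1.52 and 1.63 times the background for PLT5, whereas it stood at 6.54 and 7.14 times the background, or 3 fragments, for GFP. Only 13 and 12 of the 2530 nuclear sites exceeded these GFP limits by their mean stack over background. An enrichment of the size of the other sites was therefore not detectable in the GFP lists at this depth, and the absence of a GFP peak there is no measure of specificity. Of 2845 replicate 1 peaks with a replicate 2 partner, 258 (9.07%) overlapped a GFP peak and were left out, with replicate 1 folds between 1.16 and 30.1.

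**Figure D2:**
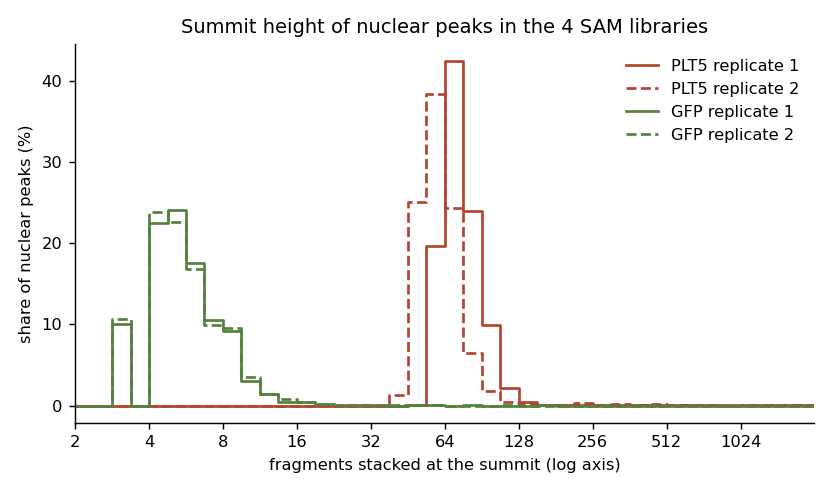
Share of nuclear peaks (y axis, %) by the number of fragments stacked at the summit (x axis, log scale) in the PLT5 and GFP replicates. PLT5 peaks have medians of 72 and 59 fragments and GFP peaks of 5, and the ranges overlap, with PLT5 summits from 53 and 42 fragments upward and GFP summits up to 175 and 123.

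The strongest sites lay in DNA with few genes. Of the 20 strongest, 17 were intergenic, 1 was in a coding sequence of a gene-poor region, 1 was in a pseudogene and 1 was in a coding sequence of a chromosome arm. They fell on chromosome 3 (9 sites), chromosome 4 (6), chromosomes 1 and 2 (2 each) and chromosome 5 (1), and the median distance from summit to the nearest start of a protein-coding gene was 59625.5 bp, against 1641.5 bp over all nuclear sites. The 19 outside the arm had between 4 and 21 protein-coding genes in the surrounding 500 kb. Their mean folds ran between 4.95 and 22.1, and the next site had 4.94.

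The leading site, chr3:13705820-13706108, had folds of 20.3 and 23.9 in the PLT5 replicates, from stacks of 730 and 640 fragments over backgrounds of 35.0 and 25.9. Its nearest protein-coding gene start, of the peroxidase gene AT3G32980, was 175871 bp away. On chromosome 4 the site chr4:3987310-3987658 had folds of 15.2 and 16.1, and chr4:4009669-4009926 had 12.2 and 12.7. These folds were high in both PLT5 libraries, and by the site rule the GFP lists on SAM DNA held no peak there. The nearest gene starts were those of AT4G06688, annotated as a myosin heavy chain-like protein, and AT4G06744, a leucine-rich repeat protein, each more than 60 kb away. The remaining sites of the leading 6 were chr2:5202945-5203295, with 10.7 and 12.2, chr3:14223661-14223997, with 10.3 and 11.2, and chr3:14223073-14223417, with 9.98 and 9.97. The last of these are neighbours and are nearest to AT3G42050, which encodes subunit H of the vacuolar ATPase.

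Repeated sequence was common to these sites. Around each summit, words of 31 bp taken every 10 bp within 100 bp of the summit were counted in the assembly. At the 20 strongest sites between 72.2% and 100% of the words occurred more than once, and the most frequent word of a site occurred between 13 and 410 times. Over all nuclear sites, 2043 (80.8%) had no repeated word, with a highest mean fold of 4.29, and none of them was among the 20 strongest. The part of repeated sequence in the folds of the leading sites was not tested.

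Outside the gene-poor regions the strongest sites were mostly single-copy and mostly carried the motif. Gene-poor regions were defined, after the values were seen, as positions with fewer than 60 protein-coding gene starts in the surrounding 500 kb, and they cover 15.1% of the nuclear genome. Of the 30 strongest sites elsewhere, also picked after their values were seen, 26 had no repeated word, 22 had a motif match and 17 had their summit within an annotated gene. These traits are not particular to the strongest. Of all 1867 sites elsewhere, 178 (9.53%) had a repeated word and 62.5% had a match. Their summits lay 40.4% in coding sequence, 11.5% in introns, 9.27% in 5′ UTRs, 3.05% in 3′ UTRs, 4.61% in pseudogenes and 1.71% in non-coding RNA genes. The first of the 30, chr4:11099591-11100023 in the coding sequence of AT4G20700, had folds of 8.09 and 8.88, and its words were repeated in 83.3% of cases. A neighbour, chr4:11091268-11091569 in the receptor-like kinase gene AT4G20650, had 4.49 and 4.12 and the same share of repeated words. Among single-copy sites, chr4:17297251-17297756 in the coding sequence of ATU2AF65A, a large subunit of the U2AF splicing factor, had 3.68 and 4.68. The promoter site of AT2G31920, chr2:13576191-13576629, had 3.77 and 4.04, with its summit 76 bp upstream of the gene start. The promoter of DOF2.4, a zinc finger transcription factor gene of the DOF class, had 3.43 and 4.16 at a summit 943 bp upstream, and that of GSTU19, a glutathione S-transferase gene, had 3.57 and 3.75 at 524 bp upstream. These values exceed the median of the sites in both replicates, which follows from the choice of the sites by their mean fold.

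Each gene part had its own leading site. A summit was assigned to 1 class, in the order coding sequence, 5′ UTR, 3′ UTR, intron, non-coding RNA gene, pseudogene, promoter (1500 bp upstream), downstream (500 bp) and intergenic. The leading intergenic site is the one on chromosome 3 described above. In coding sequence it was chr1:15082776-15083962 in AT1G40104, with folds of 9.77 and 9.96, and GFP had a peak of fold 7.70 there in 1 library on inflorescence meristem (IM) DNA. In introns it was chr2:3620929-3621309 in AT2G08986, with 4.63 and 4.78, where all words were repeated (up to 223 copies) and 1 GFP library on IM DNA had a fold of 4.59. The leading pseudogene site, chr5:11323884-11324399 in AT5G29975, had 5.33 and 4.57. The downstream class was led by chr3:15802965-15803532 near AT3G44020, which encodes a thylakoid lumenal protein, with 3.49 and 4.72, and 1 GFP library on IM DNA had a fold of 3.01 there. The promoter class was led by chr5:10775131-10775658 near AT5G28720, with 3.77 and 4.23, and the 5′ UTR class by chr5:7385490-7385938 in AT5G22310, annotated as trichohyalin-like, with 3.29 and 3.71. The leading non-coding RNA gene was AT2G04765, with 3.10 and 3.60. The leading 3′ UTR site, chr2:180140-180638, lay at the end of PIN4, an auxin efflux carrier gene, with 3.18 and 2.85, and its motif match is printed above.

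By number, coding sequence held the most PLT5 sites. In the sites as selected, coding sequence, 5′ UTRs, pseudogenes and intergenic DNA held more than their share of bases, whereas promoters, introns and 3′ UTRs held less. The whole replicate 1 list differed for coding sequence and promoters, as given with the GFP peaks below. Of 2530 nuclear summits, 786 (31.1%, 95% Wilson interval 29.3 to 32.9) were in coding sequence, which makes up 28.3% of nuclear bases. The 5′ UTR class held 178 summits (7.04%, 6.10 to 8.10), against 4.91% of bases, and pseudogenes held 371 (14.7%, 13.3 to 16.1), against 8.64%. Promoters held 315 (12.5%, 11.2 to 13.8), against 16.7% of bases, introns 238 (9.41%, 8.33 to 10.6), against 15.2%, and 3′ UTRs 58 (2.29%, 1.78 to 2.95), against 5.74%. Intergenic sites numbered 484 (19.1%, 17.6 to 20.7), against 16.1% of bases. Downstream sites numbered 61 (2.41%, 1.88 to 3.08), against 3.05% of bases, and sites in non-coding RNA genes 39 (1.54%, 1.13 to 2.10), against 1.35%, both with intervals that include the share of bases. Intervals cover counting error only. Outside gene-poor regions 173 of 1867 sites (9.27%, 8.03 to 10.7) were in 5′ UTRs, where 5.66% of bases lie. In the same regions 40.4% of sites were in coding sequence, which holds 32.4% of bases there.

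The gene parts of the GFP peaks were of another kind. GFP peaks were mostly in promoters, 48.5% in replicate 1 and 49.1% in replicate 2, and in intergenic DNA, 26.8% and 26.9%. Coding sequence held 1.71% and 1.49% of them, and pseudogenes 1.39% and 1.035%. Without the removal of GFP overlaps, the PLT5 sites were 13.8% promoter and 29.1% coding (of 2753). Whole PLT5 lists, before the replicates were matched, had promoter shares of 19.2% and 14.4% and coding shares of 27.3% and 29.9%. In replicate 1 the promoter share exceeded its share of bases, 16.7%, and the coding share did not exceed its 28.3%. The coding excess and promoter lack of the sites therefore did not hold in that whole list.

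**Figure D3:**
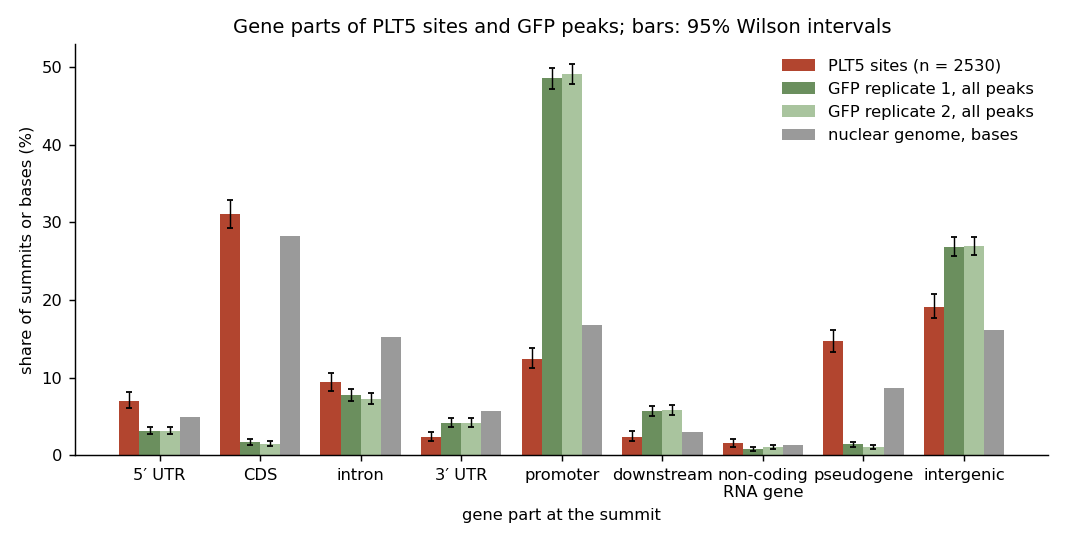
Share of summits (y axis, %) in each gene part for the 2530 nuclear PLT5 sites and for all nuclear peaks of the GFP replicates, with 95% Wilson intervals, beside the share of nuclear bases. Coding sequence holds 31.1% of PLT5 sites and under 2% of GFP peaks, whereas promoters hold 12.5% of PLT5 sites and 48.5% and 49.1% of GFP peaks.

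The sites were spread over all chromosomes with a higher density in gene-poor regions. Chromosome 1 had 598 sites (19.7 per Mb, exact 95% counting interval 18.1 to 21.3), chromosome 2 had 457 (23.2, 21.1 to 25.4), chromosome 3 had 521 (22.2, 20.3 to 24.2), chromosome 4 had 400 (21.5, 19.5 to 23.7) and chromosome 5 had 554 (20.5, 18.9 to 22.3). Neighbouring intervals of these densities overlap. The gene-poor regions of 18.0 Mb in all held 663 sites, or 36.9 per Mb (34.2 to 39.8), and the other 101 Mb held 1867, or 18.5 per Mb (17.6 to 19.3). The higher density in gene-poor regions was seen on each chromosome, the most on chromosome 3 (43.9 per Mb, against 17.3 elsewhere) and the least on chromosome 1 (29.3, against 18.4). Gene-poor regions held 26.2% of the PLT5 sites, against 11.9% of the peaks of either GFP replicate. Among the sites with no repeated word at the summit the gene-poor share was 17.3% (of 2043), against 15.1% of bases. The longest stretch without a site was between 279 and 337 kb on each chromosome, and the densest 100 kb held between 8 and 11 sites.

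The organelle genomes added 57 sites, 42 on the mitochondrial and 15 on the plastid sequence. They are carried along with the nuclear DNA in the extract and have their own copy number, so their folds were read apart from the nuclear ones. The strongest mitochondrial site, chrMt:70216-70739, had folds of 9.10 and 10.7 and lay 951 bp from the nearest gene. The others were chrMt:265131-266055 in atp6, a subunit gene of the ATP synthase, with 9.63 and 8.91, and chrMt:315730-316094, 69 bp from ccmFN1, a gene for cytochrome c maturation, with 8.68 and 9.44. Folds on the plastid were low. The leading plastid sites lay in rps4, a ribosomal protein gene (2.11 and 2.09, over local backgrounds of 5609 and 4340 fragments), psbD, a photosystem II gene (1.77 and 1.92), and cemA, an envelope membrane protein gene (1.49 and 2.14).

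PLT5 sites reached 1227 of 27444 protein-coding nuclear genes, 4.47%, counting a gene when a site touched the stretch that begins 1500 bp before the gene start and ends 500 bp after it. With replicate 1 alone the number was 3016. Only 1023 of the 2530 nuclear sites (40.4%) fell in such a window, 215 of them in the windows of more than 1 gene, and 27 genes had more than 1 site. Of 136 genes in 11 lists on the PLT family, auxin, cytokinin and the shoot meristem, 15 (11.0%) had a site. These 16 sites had mean folds between 1.81 and 2.93, ranked between 235 and 2485, and included none of the 100 strongest. Of the 16 sites, 7 were in 5′ UTRs, 6 were in promoters and 12 had a motif match, beside 58.9% of all nuclear sites with a match. The window around the gene start favours the 5′ UTR and promoter classes, so these class counts are no result about the listed genes. At 4 of the 16 sites 1 GFP library on IM DNA had a peak, with folds of 4.69 at IAA18 and at AHP6, 3.52 at PAP1 and 3.25 at ANT. The lists were chosen with earlier results of these data known, so their share is a description.

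Within the PLT family itself 4 of 8 genes had a site, beside 4.47% of all genes. PLT7 SAM peaks lay at 5 of the 8, beside 39.5% of all genes. PLT5 had one in its own 5′ UTR, 152 bp downstream of its start, with folds of 2.20 and 2.36. ANT, which promotes organ growth, had folds of 1.70 and 1.91 in its 5′ UTR at 48 bp downstream. BBM, an inducer of embryo identity, had 2.01 and 1.71 at 440 bp downstream, in an intron, and AT1G72570, a further AP2-type gene, had 1.95 and 2.32 at 288 bp upstream. The ANT, BBM and AT1G72570 values lie below the median of the sites in both replicates, and that of PLT5 lies below it in replicate 1 and above it in replicate 2.

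Of the cytokinin genes listed, 3 had a site, beside 4.47% of all genes. AHP6, which encodes an inhibitor of the cytokinin phosphorelay, was the only one of 6 AHP genes with a site, with folds of 2.29 and 2.36 at 686 bp upstream of the start and no motif match. ARR15, a negative response regulator of cytokinin, was the only one of 10 type-A ARR genes, with 2.37 and 2.58 in the 5′ UTR at 269 bp downstream. PUP16 was the only one of 18 purine permease genes, a family that includes cytokinin transporters, and had a site at 1102 bp upstream with 3.12 and 2.73 and another at 546 bp upstream with 1.90 and 2.51. Both PUP16 sites lie within the neighbouring gene AT1G09870, in coding sequence and in an intron, so the gene they belong to cannot be told apart by position.

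Among auxin genes, the windows with a site were those of NPY, ARF and Aux/IAA genes. Of 5 NPY genes, which act with PINOID in organ formation, NPY1 had folds of 2.37 and 2.85 in its 5′ UTR. NPY4 had 2.65 and 2.06 with the summit 4 bp downstream of its start and no motif match. The paper, which matched replicates by another rule, names PLT3 and PLT7 but not PLT5 as binding NPY4 in the SAM. Of 23 ARF genes, ARF11 had 2.73 and 2.77 at 423 bp upstream, ARF18 had 2.38 and 2.56 in its 5′ UTR, and ARF9 had 1.76 and 1.98 at 1305 bp upstream. Of 29 Aux/IAA repressor genes, IAA18 had 2.23 and 2.55 at 512 bp upstream and PAP1 (the gene also known as IAA26) had 2.12 and 2.47 at 237 bp upstream. No site fell in the window of any of the 8 PIN genes (the PIN4 site lies at the other end of the gene), the 5 AUX/LAX and PINOID genes or the 12 YUCCA and TAA1 genes. Of all genes, 4.47% had a site.

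Of 12 meristem and boundary genes, 1 (8.33%) had a site, beside 4.47% of all genes. It was CUC3, a NAC gene that separates organs at their boundaries, with folds of 2.12 and 2.37 in the 5′ UTR 21 bp downstream of its start. Of 51 genes listed as changed in expression in SAMs of the plt3 plt7 mutant, 6 (11.8%) had a PLT5 site, beside the same 4.47%, with mean folds between 1.85 and 2.55. They were NPY4, described above, AT3G24240, a leucine-rich repeat receptor-like kinase gene (2.26 and 2.85), GATL10, a galacturonosyltransferase-like gene (2.01 and 2.58), CAT2, a catalase gene (1.79 and 1.91), AT1G04290, a thioesterase gene (2.20 and 2.10), and AT5G24240, a phosphatidylinositol 4-kinase-like gene (2.26 and 2.32). PLT7 SAM peaks lay at 27 of the 51 genes, beside 39.5% of all genes. The mutant lacks PLT3 and PLT7 but not PLT5, so the changes are not tied to PLT5 by these sites. The list of changed genes was used here for gene names only.

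The motif was present at most PLT5 sites and rare in GFP peaks. A match, called at the score that 5% of windows 500 bp away from the sites exceed, lay within 50 bp of the summit at 1491 of 2530 sites (58.9%, 57.0 to 60.8), compared with 4.86% of 117760 windows of 101 bp tiled over the nuclear genome. Its centre was a median of 9.5 bp from the summit, and 83.8% of matches were within 25 bp. In whole libraries the share was 46.6% and 52.1% for PLT5, against 2.73% and 2.33% for GFP. The difference was 46.8 percentage points, with no overlap of the libraries (exact permutation test, two-sided, p = 0.333, the smallest that 2 libraries against 2 allow). Whole PLT5 lists can hold training sites of the matrix, whereas GFP peaks overlap none, since the training sites were free of GFP overlap. The library comparison is therefore not independent of the fit. A matrix fitted on PLT5 sites of chromosomes 1 and 2 read NGCACGNNTNNCGAGG and was matched at 64.5% of the 1475 sites on the other chromosomes. By gene part the share ran from 49.2% of intergenic sites (44.7 to 53.6) and 50.9% of pseudogene sites to 68.5% of 5′ UTR sites (61.4 to 74.9) and 77.6% of 3′ UTR sites (65.3 to 86.4).

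Motif matches were fewest at the strongest sites. Only 1 of the 20 strongest sites had one (5%, 0.888 to 23.6), chr2:5198664-5199105 with folds of 6.28 and 6.64. The share was 58.8% at ranks 21 to 100 (47.8 to 68.9), 73.0% at ranks 101 to 300 (66.5 to 78.7), 69.3% at ranks 301 to 1000 (65.8 to 72.6) and 53.1% at lower ranks (50.6 to 55.6). The gene-poor share was lower at each lower rank group, with 95% of the 20 strongest, 60% at ranks 21 to 100, 34.5% at ranks 101 to 300, 25% at ranks 301 to 1000 and 23.0% below. In gene-poor regions 49% of sites had a match (45.2 to 52.8), against 62.5% elsewhere (60.2 to 64.6).

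**Figure D4:**
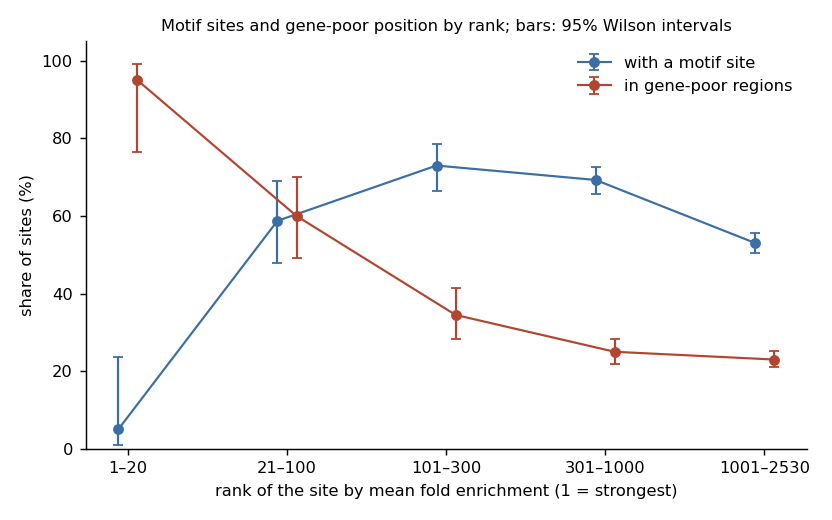
Share of nuclear PLT5 sites (y axis, %) with a motif match and in gene-poor regions, by rank of mean fold enrichment (x axis, 1 is the strongest), with 95% Wilson intervals. Matches go from 5% of the 20 strongest sites to 73.0% at ranks 101 to 300 and 53.1% at the lowest ranks, while the gene-poor share goes from 95% to 23.0%.

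Nearly all PLT5 sites were also peaks of the related proteins. Of 2530 nuclear sites, 97.7% had a peak in both PLT7 SAM replicates and 93.7% in both PLT3 SAM replicates, and 82.8% had one in both libraries of PLT5 on IM DNA. Only 12 sites had no PLT3 or PLT7 SAM peak, and 2 had no peak in any of the 10 other PLT libraries. PLT7 lists reach far more of the genome, with a GFP-free reproducible peak at 39.5% of protein-coding genes, against 4.47% for PLT5. The limit on library signal given with the folds below also applies to this difference in reach. The reach of PLT7 included all 16 sites of the gene lists.

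PLT7 folds were higher than PLT5 folds at most shared sites. The paper reports a lower fraction of reads in peaks, its proxy for signal over noise, for PLT5 than for PLT7. It found that this fraction rose with peak number, and proposes that binding affinity perhaps differs. Library signal and bait protein therefore cannot be told apart in these folds. At sites with both PLT7 peaks, the median PLT7 fold was 6.28 and the median ratio of the PLT7 to the PLT5 fold was 2.66 (quartiles 2.25 and 3.06, 2473 sites). Among the 20 strongest PLT5 sites, 16 had both PLT7 peaks, with a median ratio of 1.27, and at 5 of them the PLT5 fold was the higher. These 20 were chosen by the PLT5 fold, the denominator of the ratio, which lowers their ratio by the choice itself, so it is a description only. At the leading site on chromosome 3 the folds were 20.3 and 23.9 for PLT5, against 25.8 and 25.5 for PLT7, and 22.6 and 24.4 for PLT3. At the site on chr4:3987310-3987658 they were 15.2 and 16.1 for PLT5, against 6.57 and 6.90 for PLT7. On IM DNA the PLT5 folds at that site were 15.4 and 16.0, as on SAM DNA. At NPY4, a site of ordinary strength, the folds were 2.65 and 2.06 for PLT5, against 8.26 and 6.61 for PLT7. The median ratio was 2.72 at 1472 sites with a motif match and 2.57 at 1001 sites without one, a difference that was not tested. Over the 2473 sites Spearman's rho between PLT5 and PLT7 folds was 0.51, a description across sites that share their sequence and mappability.

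**Figure D5:**
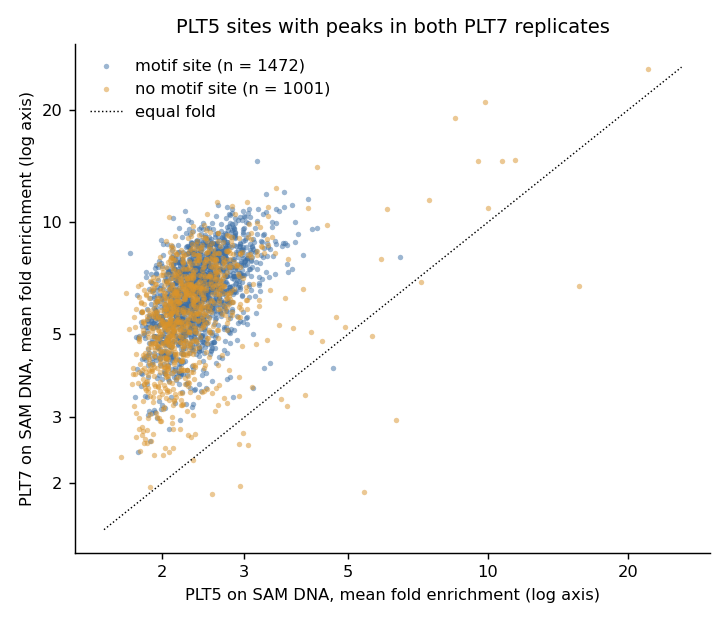
Mean fold enrichment of PLT5 (x axis, log scale) and PLT7 (y axis, log scale) on SAM DNA at the PLT5 sites with peaks in both PLT7 replicates, coloured by the presence of a motif match, with a dotted line at equal fold. Most sites lie above the line, with a median ratio of 2.66. Sites at the right were chosen as strongest by the value on the x axis, so their place relative to the line is no separate result.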

How the data were processed

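For each library the authors aligned reads to TAIR10.1 and called peaks with MACS3 (q-value limit 0.1, maximum gap 100 bp) without a control library. The submitters' processing notes name fastp 0.23.2, BWA 0.7.17, SAMtools 1.15 and MACS3. The deposited lists give a score per peak, the fold enrichment at the summit (a ratio), −log10 p-value and −log10 q-value and the summit offset. The authors compared replicates by IDR, and the overlap rule stated in the report took its place here. The paper kept fewer PLT5 peaks by IDR than the 2587 sites of the overlap rule. The members and gene lists were chosen with earlier results of these data known.

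Stacked fragments were recovered from the fold and the p-value of each peak (tolerance 0.005 on the −log10 scale) and gave the depth. Gene parts and sequences came from the RefSeq copy of TAIR10.1. The motif matrix was fitted with 60 rounds of expectation maximisation from 5 seeds on 600 windows of 101 bp. Named sites were the 20 strongest nuclear sites, the strongest of each gene part, the 3 strongest on each organelle sequence, and genes of the lists or of the plt3 plt7 SAM list with a site. The overlap, recovery and motif steps were tested on simulated data. Alternatives were other overlap, GFP, q-value, window and motif settings and each library left out. The methods call the replicates biological, and the labels do not say how the harvests were separated. Python 3.11.15, numpy 2.4.6, pandas 2.3.3, scipy 1.17.1 and matplotlib 3.10.9 were used.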

Additional observations from a re-analysis of the deposited data

Results flagged for a closer look

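Of the 2530 nuclear PLT5 sites, which by rule overlap no GFP peak on SAM DNA, 197 (7.79%) overlapped a GFP peak called on inflorescence meristem DNA, in lists that the site rule does not use. Of these, 30 overlapped peaks of both GFP replicates of that tissue and 3 were among the 20 strongest sites. They had a median mean fold of 2.33, against 2.32 over all nuclear sites. A motif match was present at 107 of them (54.3%), against 58.9% of all nuclear sites. The GFP lists on IM DNA hold 9933 and 6884 nuclear peaks, and the overlap that random placement would give was not computed. On SAM DNA, 258 of 2845 matched PLT5 peaks (9.07%) overlapped a GFP peak.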

How the results depend on the processing

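Of 159 values recomputed under other settings, 137 stayed within their limits (1.5 times for counts, the 95% interval for shares, the direction for the library difference) and 22 moved. Some of the 137 could not move. The promoter window leaves the coding, 5′ UTR and pseudogene shares as they are, since those classes take precedence, and pairing by replicate number leaves the mean difference unchanged. Leaving out each PLT5 or GFP library in turn gave between 2671 and 6073 sites, 1268 and 3016 genes with a site, 29.8% and 31.7% coding, 12.8% and 16.8% promoter, 6.27% and 7.08% 5′ UTR, 11.0% and 14.4% pseudogene and 19.2% and 19.8% intergenic sites, and a motif share between 48.2% and 58.7%. Without PLT5 replicate 2 there were 6073 sites, 3016 genes and a motif share of 48.2%, and without PLT5 replicate 1 the motif share was 53.2%. Windows of 1000 bp upstream gave 662 genes, and 3000 bp upstream to 1000 bp downstream gave 2153. Promoters of 1000 or 3000 bp held 9.29% or 18.2% of sites, leaving 21.9% or 14.4% intergenic. Without removal of GFP overlaps the shares were 29.1% coding, 13.8% promoter and 20.8% intergenic, and with removal of IM GFP overlaps too they were 33.0% coding and 17.6% intergenic. The motif share was 35.6% at the score that 1% of background windows exceed, 54.4% with 100 bp flanks, 64.5% with the matrix from chromosomes 1 and 2 and, chosen after seeing the data, 62.3% at sites without repeated words, where the gene-poor share was 17.3%. The causes of these moves were not tested. With the libraries paired by replicate number, a comparison also added after seeing the data, the motif share of PLT5 exceeded that of GFP by 43.8 and 49.8 percentage points, with the same mean of 46.8 (exact sign-flip permutation test, two-sided, p = 0.5, the smallest that 2 pairs allow). The labels share only a number between the baits, and the other results have no fit to block. Leaving out 1 library gave differences between 44.0 and 49.6 points. These differences, and the motif shares of single PLT5 libraries, share a limit stated above. Whole PLT5 lists can hold training sites of the matrix. The GFP depth, c. 3 fragments per listed summit at the least, limits every statement on specificity.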

Other observations

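Peaks left out of the PLT5 sites carried the motif too, though the matrix was not kept independent of these peaks. Among 3482 nuclear replicate 1 peaks with neither a replicate 2 partner nor a GFP overlap, 40.5% had a match (95% Wilson interval 38.8 to 42.1), and among 223 matched nuclear peaks removed for a GFP overlap 44.8% did (38.5 to 51.4), against 4.86% of windows tiled over the genome. The unmatched replicate 1 peaks had a median fold of 1.92, against 2.29 for the sites in that replicate.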
